A study of Mus musculus with 3 samples.

Results

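The DEAD and DEAH box genes, whose symbols start with Ddx or Dhx and a digit, mostly encode RNA helicases. All genes with such a symbol are called helicase genes here. They were selected by symbol from the 16697 genes to which the authors assigned a binding region of serum response factor (SRF) in mouse cornea. The selection gave 47 genes, 32 with Ddx and 15 with Dhx symbols, and their 92 regions out of 31850. SRF binding was measured by chromatin immunoprecipitation and sequencing in whole cornea of untreated mice of mixed background, aged about 8 weeks. The mutant library was made from Dstn-corn1 animals, in which destrin, a protein that takes actin filaments apart, is missing. The other was made from wildtype mice, and an input library without antibody was not used here. Genotypes were taken from the sample titles, since the growth protocol names mutant mice for the wildtype library too, and the sources used here do not say how many mice each library pooled. As each genotype had 1 library, differences between them could not be set against replicates and carry no p-value. The files hold binding and not expression, so cell type markers could not check the tissue label. Wildtype heights exceeded mutant heights at 95.4% of all regions, and the log2 ratio of mutant over wildtype had a median of -1.10. Ratios of helicase regions were therefore read against that common value, because the sources used here do not say how the libraries were scaled, and read depth is unknown.

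Helicases of this family use ATP to unwind or remodel RNA and its protein complexes. The DEAD box members open short duplexes locally, the DEAH box members move along a strand, and the names spell the amino acids of a shared motif. Between them they serve each step of an RNA's life, from transcription and splicing through nuclear export, ribosome assembly and translation to decay. SRF binds a DNA element named the CArG box, often beside an ETS site that carries its ternary complex cofactors, and is best known for actin and immediate early genes.

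The highest helicase region lay over the start of Ddx17, which encodes a helicase of the Microprocessor and a transcription coregulator. It spanned chr15:79545639-79547758 (mm10), 2119 bp, with its centre 43 bp past the start, and its peak height, the deposited signal at its highest point, was 167 in mutant and 313 in wildtype. It ranked 2 among all 31850 regions in each library. The regions at Ddx42 and Dhx8, both splicing helicases, and at Ddx18, a ribosome biogenesis helicase, followed among regions at helicase starts. Ddx42 had 100 in mutant and 208 in wildtype (chr11:106215770-106217565). Dhx8 had 75 and 190 (chr11:101732351-101733325). Ddx18 had 60 and 170 (chr1:121567489-121568428). Ddx17 thus stood well above the next helicase region in both libraries, while Ddx5, its closest paralog, had only 13 and 18 at its start.

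The promoter windows of these 4 genes run from 250 bases before to 50 after the RefSeq start (GRCm38.p6). They are shown because these start regions were the highest, and that of Ddx5 for contrast. The wildtype summit lay outside the window at Ddx17 (listed at 53 from the start), Ddx42 (-510) and Ddx5 (-786). It lay inside the window at Dhx8 and Ddx18. Capitals mark matches on either strand to CCGGAAG, an ETS letter pattern, and to GGGCGG, the GC box; adjacent GC boxes of Ddx5 overlap. The windows are chr15:79546692-79546991 (minus strand) for Ddx17, chr11:106216676-106216975 (plus) for Ddx42, chr11:101732706-101733005 (plus) for Dhx8, chr1:121567931-121568230 (minus) for Ddx18 and chr11:106788445-106788744 (minus) for Ddx5.
Ddx17: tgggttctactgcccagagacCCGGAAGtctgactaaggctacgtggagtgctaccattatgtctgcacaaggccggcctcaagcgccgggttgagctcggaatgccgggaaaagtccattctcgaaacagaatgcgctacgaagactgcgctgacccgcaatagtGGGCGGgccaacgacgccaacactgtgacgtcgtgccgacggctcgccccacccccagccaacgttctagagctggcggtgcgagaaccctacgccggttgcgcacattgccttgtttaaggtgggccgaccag
Ddx42: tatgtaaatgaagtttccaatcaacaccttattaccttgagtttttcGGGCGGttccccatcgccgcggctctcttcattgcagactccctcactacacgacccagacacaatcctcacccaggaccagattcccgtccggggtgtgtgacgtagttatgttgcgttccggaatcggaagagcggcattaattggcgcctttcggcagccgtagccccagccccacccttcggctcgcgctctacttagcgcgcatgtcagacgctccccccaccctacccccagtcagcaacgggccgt
Dhx8: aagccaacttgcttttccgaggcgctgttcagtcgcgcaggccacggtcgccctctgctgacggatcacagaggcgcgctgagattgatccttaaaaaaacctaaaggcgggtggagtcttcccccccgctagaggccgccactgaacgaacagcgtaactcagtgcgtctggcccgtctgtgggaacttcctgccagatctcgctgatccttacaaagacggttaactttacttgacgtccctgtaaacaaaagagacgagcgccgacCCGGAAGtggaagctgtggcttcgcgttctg
Ddx18: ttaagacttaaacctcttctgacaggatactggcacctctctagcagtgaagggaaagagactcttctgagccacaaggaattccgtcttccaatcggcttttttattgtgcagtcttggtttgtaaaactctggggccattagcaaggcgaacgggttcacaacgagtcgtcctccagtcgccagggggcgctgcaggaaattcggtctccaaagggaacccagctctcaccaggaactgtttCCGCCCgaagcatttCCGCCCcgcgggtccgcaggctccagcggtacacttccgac
Ddx5: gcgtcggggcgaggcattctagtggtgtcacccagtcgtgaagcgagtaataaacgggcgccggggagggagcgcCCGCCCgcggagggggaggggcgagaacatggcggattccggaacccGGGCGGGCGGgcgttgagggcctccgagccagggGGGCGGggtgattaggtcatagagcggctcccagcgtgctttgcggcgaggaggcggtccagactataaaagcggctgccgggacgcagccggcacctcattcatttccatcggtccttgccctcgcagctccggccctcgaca
The ETS pattern began at position -229 from the start in Ddx17 and at 19 in Dhx8, and was not found in the other 3 windows. The CArG box was in none of the 5. A further RefSeq window of Ddx5, not shown, has its start at -413 and lies under the same region. It held an ETS match at -114 from its own start.

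Of 47 helicase genes, 43 had a RefSeq window, 38 of them with the same start as the authors' table, and 36 windows lay under a region. A CArG box was found in 0 of these 36 (exact binomial 95% interval up to 9.74%), beside 1.18% of the 6466 genes with a region over their window and 1.70% of the 20559 without. The ETS pattern was found in 15 of 36 (41.7%, 25.5 to 59.2), beside 22.5% of all genes with a region over their window and 4.93% of those without. GC boxes stood at 66.7%, close to the 68.7% of all genes with a region. The CRE pattern TGACGTCA was in 5 of 36 (13.9%, 4.67 to 29.5), those of Ddx19a, Ddx28, Ddx49, Ddx51 and Dhx36, beside 3.70%. The CCAAT box (CCAAT) stood at 41.7% beside 37.7%, the NRF1 pattern at 5.56% beside 2.26%, the E-box CACGTG at 2.78% beside 10.5% and the TATA box TATAAA at 2.78% beside 5.54%. Both strands were searched for each pattern. Median GC content was 60.3% in the 36 windows and 62.3% in all windows under a region. These are letter matches for 8 patterns in 300 bases, not binding sites, and the shares were not tested.

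**Figure D1:**
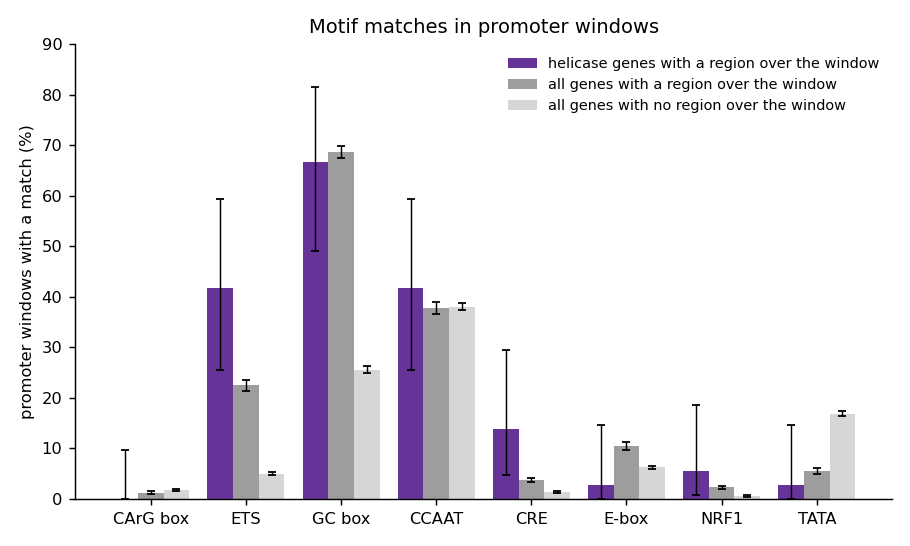
Share of promoter windows (percent, y axis) with a match to each of 8 letter patterns (x axis), for 36 helicase genes and 6466 genes with a region over the window and 20559 genes without; bars are shares and lines exact binomial 95% intervals. The helicase bar is at 0 for the CArG box and at 41.7% for the ETS pattern.

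The only CArG box among the helicase windows was in that of Ddx26b, since renamed Ints6l, a relative of an Integrator subunit. It is a member here by its former symbol only. Its window, chrX:56454589-56454888 (plus strand), is shown with the CArG box and a GC box in capitals.
Ddx26b: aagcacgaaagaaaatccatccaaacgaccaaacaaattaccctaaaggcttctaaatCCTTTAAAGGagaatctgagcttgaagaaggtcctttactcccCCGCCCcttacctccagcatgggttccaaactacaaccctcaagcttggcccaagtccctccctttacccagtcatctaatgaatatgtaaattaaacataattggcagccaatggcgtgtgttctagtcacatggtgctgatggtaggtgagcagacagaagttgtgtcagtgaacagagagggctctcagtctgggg
The CArG box, CCTTTAAAGG, began at position -192 from the start, and no region lay over the window. The nearest region, centred 1023 bp past the start, had 5 in mutant and 12 in wildtype and was called in wildtype only. A second region 35136 bp past the start had 10 and 22. Both were among the lower helicase regions.

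Helicase genes were bound at their starts more often than all genes of the table, as were related helicases and partners. A region lay within 1 kb of the start in 39 of 47 (83.0%, exact binomial 95% interval 69.2 to 92.4), beside 48.3% of all 16697 genes. The share was 80% of 20 related helicases under other names and 77.8% of 27 partners of the helicases, both described below. Of the 92 regions, 50 lay within 1 kb of some gene start (54.3%, 43.6 to 64.8), beside 29.8% of all regions with an assigned gene. Many stood in gene-dense places, as 66.3% were assigned to more than 1 gene against 34.1% of all regions with a gene. A region assigned to several genes has more chances to be counted for any family, and among regions of a single gene the promoter share was 41.9%, beside 20.8%. These intervals cover counting error only, and the differences were not tested.

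Counted against the reference annotation, 54 genes belong to the family, with Ddx26b under its new symbol. An interval was called for 41 of them in mutant (75.9%, 62.4 to 86.5) and for 47 in wildtype (87.0%, 75.1 to 94.6). Of 21900 protein-coding genes, 49.6% and 65.5% had one. A gene renamed like Ddx26b entered the 54 only because it had a row, and one without a row would be missed. The family shares may thus run slightly high. The 7 family genes without a row in the table analysed here were Ddx3y, Ddx4, Ddx6, Ddx11, Ddx50, Ddx60 and Dhx40, and 0 regions lay within 10 kb of any of them. Since the authors assigned regions to genes close to them, a gene without a row is unlikely to have one nearby. The count of 0 is thus no separate evidence. Ddx50 is the paralog of Ddx21, which had 3 regions, and Ddx6 is a general mRNA decay factor.

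Within the 47 genes, an interval was called in mutant for 41, or 87.2%, beside 73.8% of all genes in the table, and in wildtype for 47, beside 99.0%. Counting only regions assigned to a single gene, the shares were 14 of 47 (29.8%) in mutant, beside 33.7% of all genes, and 20 of 47 (42.6%) in wildtype, beside 51.5%. Under that count both shares lay below those of all genes. The 6 called in wildtype only were Ddx19a, Ddx19b, Ddx27, Ddx3x, Ddx43 and Ddx58. All 6 had wildtype heights of 21 or less. By region, 64 of the 92 had an interval in each library, beside 48.9% of all regions, and the other 28 had one in wildtype alone. Intervals were thus called at 69.6% of helicase regions in mutant, beside 51.0% of all regions, and at all 92 in wildtype, beside 97.9%. No helicase region was listed at 0.

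**Figure D2:**
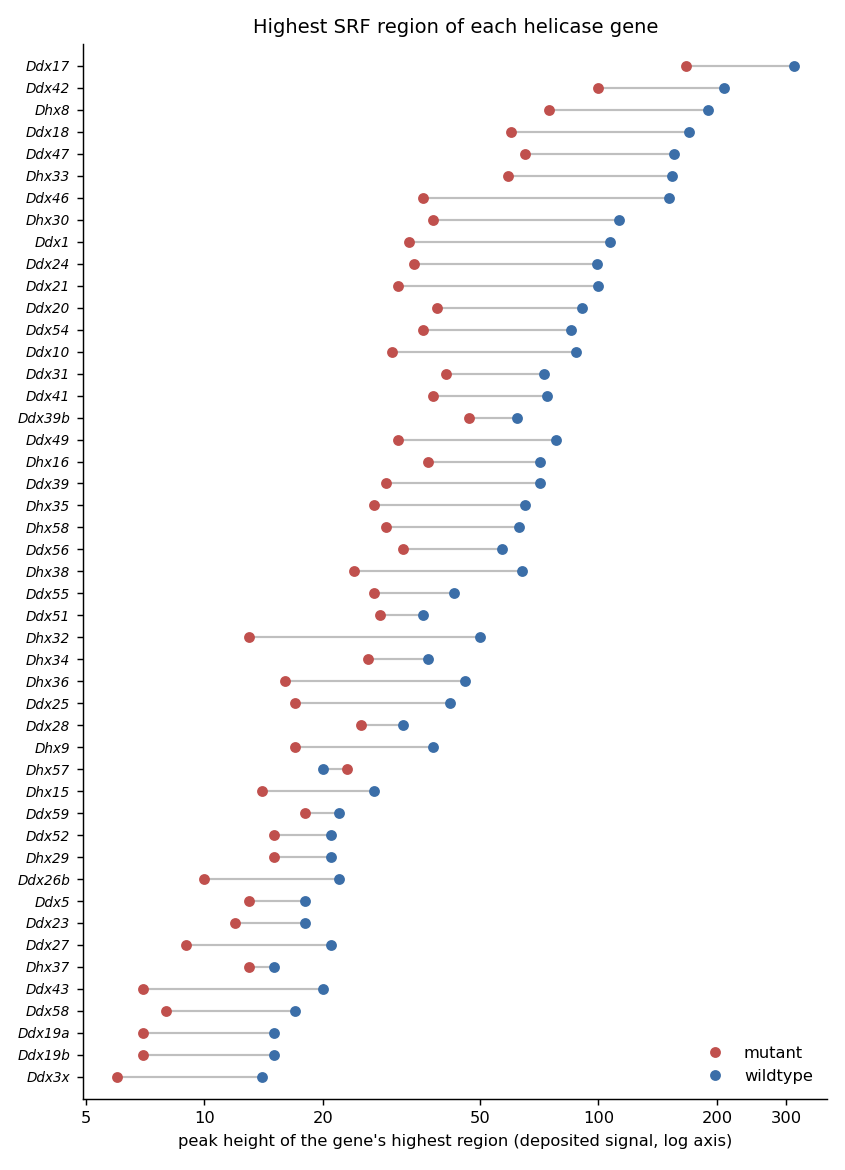
Peak height of the highest region (x axis, deposited signal, log scale) of each of the 47 helicase genes (y axis, by mean height) in the mutant (red) and wildtype (blue) library. Wildtype is the higher of the pair at every gene but Dhx57, and Ddx17 is highest in both.

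Where both libraries had a summit, the 2 summits of a region lay a median of 32 bp apart, and 60 of 64 were within 100 bp. At the 39 bound starts, with the highest start region of each gene taken, the wildtype summit lay upstream in 32 and downstream in 7, with a median of 45 bp upstream (listed at -45), and 31 were within 200 bp. Of these 39 the farthest upstream was that of Ddx5, at -786, where RefSeq windows of 3 Ddx5 starts lie under the region. A further start region of Dhx57, called in wildtype only, had its summit at -820. At Ddx42 the summit was at -510, and the region also lies over the start of Ccdc47.

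**Figure D3:**
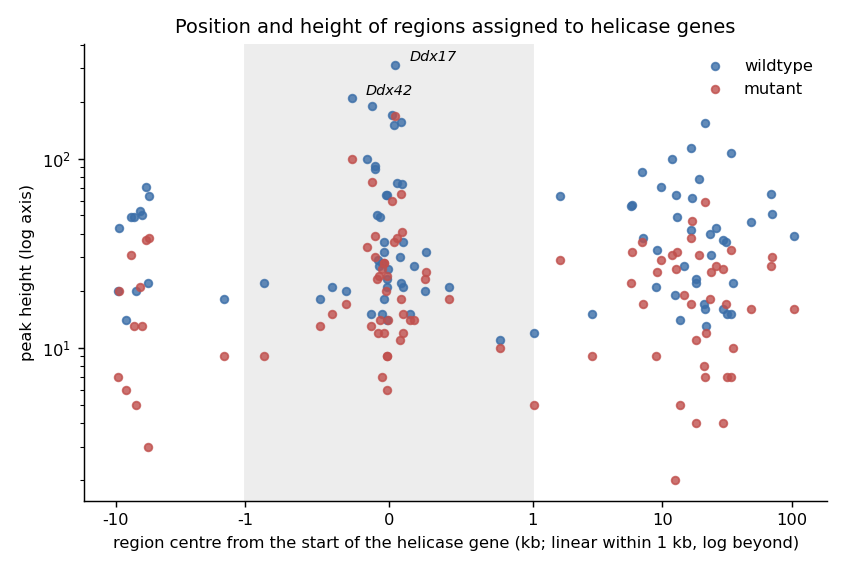
Distance of each region's centre from the start of its helicase gene (x axis, kb, linear within 1 kb and log beyond) against peak height (y axis, log scale) in wildtype (blue) and mutant (red), for 93 pairs of region and gene. The highest points, Ddx17 and Ddx42, sit in the shaded band within 1 kb of the start, and the other points spread over both sides of it.

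Over all helicase regions the ratios lay close to the common value, while among regions of a single gene they were lower. After 1 was added to each height, the log2 ratio of mutant over wildtype had a median of -1.09 over the 92 regions (order-statistic 95% interval over regions -1.20 to -0.94), beside -1.10 for all regions. Of the 92, 55 were at least 2-fold lower in mutant (59.8%), beside a background of 59.0% of all regions, and 0 were at least 2-fold higher, beside 0.414%. With mutant heights multiplied by 2.1, which equalises the medians of regions called in both libraries, 3 were at least 2-fold lower and 1 higher, beside 9.30% and 4.58% of all regions. Taking the highest region of each gene, the median was -1.09 over 47 genes and -1.08 over all genes, and 29 of 47 (61.7%) were at least 2-fold lower, beside 57.7%. Among the 31 regions assigned to a single gene, 25 were at least 2-fold lower (80.6%), beside 58.9% of all such regions, and the median was -1.23, beside -1.10. The 31 had a median wildtype height of 38, beside 28 for all regions. Over all regions, the share at least 2-fold lower was 43.4% at wildtype heights up to 19 and 87.9% at 100 or more. The part of height was not tested. By the average value of each region, 25 of 92 were at least 2-fold lower (27.2%), beside 35.5%. None of these differences was tested.

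**Figure D4:**
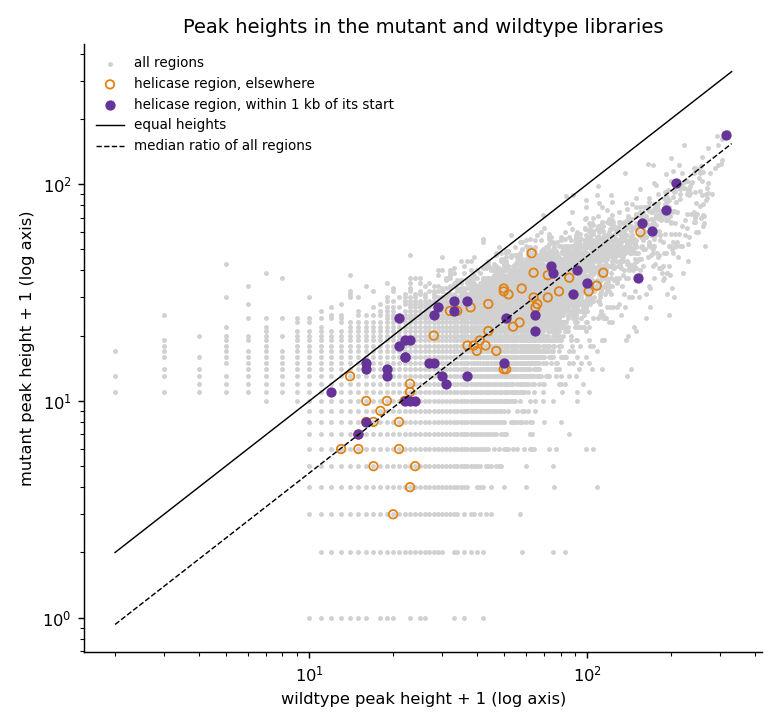
Mutant against wildtype peak height plus 1 (both log scales) for all regions (grey), helicase regions within 1 kb of their start (purple) and other helicase regions (orange rings), with lines for equal heights and for the median ratio of all regions. The helicase points spread around the dashed median line, and 1 of 92 lies above the line of equal heights.

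At starts the ratio went with height. Over the 6 start regions with a wildtype height of 100 or more the median log2 ratio was -1.29, beside -1.43 for all promoter regions of that height, and over the 14 with heights of 20 to 29 it was -0.46, beside -0.75. The ratio and the wildtype height share a value, so they are not independent. Over all 41 start regions the median was -0.94, with 20 at least 2-fold lower (48.8%), beside 39.6% of all promoter regions. The 41 were higher, with a median wildtype height of 29, beside 23. At wildtype heights up to 19 the share at least 2-fold lower was 28.6%, beside 19.4% of all promoter regions. It was 28.6% beside 33.0% at 20 to 29, and 50% beside 51.7% at 30 to 49. Higher up it was 75% beside 72.6% at 50 to 99, and 83.3% beside 90.6% at 100 or more. The part of height was not tested.

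Start regions that served another gene start as well differed in ratio from the others, in a split made after the values were seen. In 14 regions a helicase start and another start lay within 1 kb, and their median log2 ratio was -0.35, with 2 at least 2-fold lower in mutant. In 27 regions with a single start the median was -1.20, with 18 at least 2-fold lower. All 14 shared regions were called in both libraries, against 18 of 27. Of all promoter regions, 696 of 1141 with 2 or more starts and 3391 of 6093 with 1 start were. Among all promoter regions the medians were -0.66 with 2 or more starts and -0.83 with 1, and the shares at least 2-fold lower were 30.4% and 41.3%. Median heights were 23.5 in mutant and 27 in wildtype for the shared regions, and 14 and 32 for the others. The part of height in this difference was not tested.

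**Figure D5:**
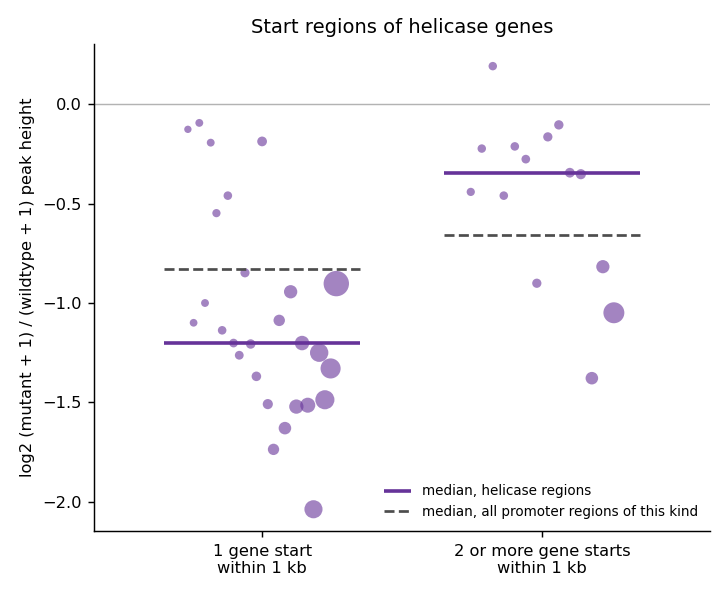
Log2 ratio of mutant to wildtype peak height (y axis) at the 41 helicase start regions, split by whether 1 or more gene starts lie within 1 kb (x axis); each point is a region with area growing with wildtype height, purple lines are medians and dashed lines the medians of all promoter regions of the same kind. The shared regions have a median of -0.35 and the single ones of -1.20.

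The 14 shared start regions had median heights of 23.5 in mutant and 27 in wildtype. All promoter regions with 2 or more starts had 15 and 22. Dhx57, a less studied DEAH box gene whose start region also covers Morn2, had 23 in mutant against 20 in wildtype. Its log2 ratio of 0.19 made it the only helicase region higher in mutant. Dhx32 had 26 and 28 in a region with Fank1, Ddx49 24 and 27 with Cope, and Ddx59 18 and 22 with 9230116N13Rik. Ddx51 had 28 and 36 in a region with Noc4l, which like Ddx51 serves ribosome assembly. In each of these regions the deposited heights differed by less than 2-fold. Ddx42 with Ccdc47 and Dhx38 with Txnl4b were the 2 shared regions at least 2-fold lower in mutant, at -1.05 and -1.38.

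Of the splicing helicases all 9 were bound, beside 66.1% of protein-coding genes. Of the 9, 8 had a region at their own start, beside 33.5%. Besides Ddx42 and Dhx8, which releases spliced mRNA from the spliceosome, Ddx46, needed for branch site recognition, had 36 in mutant and 151 in wildtype. Its log2 ratio of -2.04 was the lowest among the highest regions of the 47 genes. Ddx41 had 38 and 74 (-0.94), and Dhx38 had 24 and 64. Dhx16 had 20 and 64 at its start, and 37 and 71 in a region at -5854 that was also assigned to Ppp1r18, Nrm and 5530401N12Rik. Dhx15, which takes the spliceosome apart, had 14 and 27, and Ddx23 had 12 and 18. Dhx35 had no region at its start, and its 2 regions lay 69046 and 70709 bp past it. The median ratio of this list was -1.05, so it sat at the common value.

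The ribosome biogenesis helicases were the largest group. Of 16 in the list 15 were bound, each with a region at its own start, and 14 were called in mutant. Among protein-coding genes 66.1% were bound, 33.5% had a region at their start and 49.6% were called in mutant. Start heights of the 15 ran from 9 to 65 in mutant and from 15 to 170 in wildtype. Ddx18 and Ddx47, which acts in small subunit assembly, were highest, Ddx47 with 65 and 156 (chr6:135011153-135012237), in a region without a CpG island, whereas 39 of the 41 start regions had one. Ddx24 had 34 and 99, Ddx10 30 and 88, and Ddx31 41 and 73. Ddx54 had 17 and 20 at its start and 36 and 85 in a region 6952 bp inside the gene, Ddx56 12 and 36 at its start and 32 and 57 inside, and Ddx52 15 and 21. Ddx21, a nucleolar helicase, had 11 and 30 at its start but 31 and 100 in a region 11889 bp inside the gene. The lowest starts were those of Ddx27 (9 and 21) and Dhx37 (13 and 15). The median log2 ratio at the highest regions was -1.22, with 9 of 15 at least 2-fold lower (60%), beside 57.7% of all genes.

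For several ribosome biogenesis genes the highest assigned region lay at a neighbour. Dhx33 had 59 in mutant and 154 in wildtype in a region at the start of C1qbp, 21378 bp from its own start, where it had 23 and 50. Ddx49 had 31 and 78 at the start of Homer3. Ddx55 had 27 and 43 at the starts of Eif2b1 and Gtf2h3. Across the 47 genes the highest region lay at the gene's own start in 24 (51.1%, beside 27.2% of all genes), at another start only in 4, and at no start in 19. A height assigned to these genes can therefore belong to a neighbour.

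The helicases of transcription and the Microprocessor had the widest range of heights among the role lists, from 13 to 167 in mutant and from 18 to 313 in wildtype. Beside Ddx17 at 167 and 313, Ddx5 had 4 regions with wildtype heights of 11 to 23. Its start region had 13 in mutant and 18 in wildtype (chr11:106788354-106789592). Dhx9, also a transcription coregulator, had a single region 7061 bp inside the gene with 17 and 38 and none at its start. Ddx17 kept a log2 ratio of -0.90, Ddx5 of -0.44 and Dhx9 of -1.12.

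The mRNA export helicases were low at their starts. Ddx39b, which loads export factors on mRNA, had 6 regions, the most of any member, and its start had 28 and 32. Its highest, 47 and 62, lay 16924 bp past the start and was also assigned to H2-D1. Ddx39, its paralog, had 14 and 15 at its start and 29 and 71 in a region 9791 bp past it, also assigned to Cd97. Ddx19a had 7 and 15 at its start, and that region was also the only one of Ddx19b, its neighbour and paralog, 33882 bp away. With the libraries as deposited, Ddx39 and Ddx39b were nearly level at their starts and Ddx19a was not.

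Of the helicases of translation and mRNA decay 4 of 6 were bound, beside 66.1% of protein-coding genes. All 4 had a region at their start, beside 48.3% of all genes in the table. None of the 4 exceeded 15 in mutant or 49 in wildtype there. Ddx3x, a translation factor on the X chromosome, had the lowest maximum of all members, with 6 and 14. Dhx29, which helps ribosomes scan, had 15 and 21 in a region shared with Skiv2l2. Dhx34, of nonsense-mediated decay, had 14 and 49, and Dhx36, which opens G-rich folded RNA, 9 and 23. These 2 start regions were called in wildtype only. Dhx34 also had 26 and 37 at 29551 bp past its start, and Dhx36 16 and 46 at 48553 bp. Both of those regions were called in both libraries.

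Dhx30, which serves mitochondrial ribosome assembly, had 2 start sites under regions. At the start of the authors' table it had 18 in mutant and 21 in wildtype. A higher region, 38 and 113 (chr9:110100629-110101460), lay 16572 bp inside the gene by the authors' table, with a CpG island. RefSeq places another Dhx30 start 16529 bp past the first, and the wildtype summit was listed 16528 bp past it. The window at that inner start, chr9:110101038-110101337 (minus strand), is shown because it lies under the higher region, and holds neither an ETS, GC box nor CArG box match.
Dhx30 inner start: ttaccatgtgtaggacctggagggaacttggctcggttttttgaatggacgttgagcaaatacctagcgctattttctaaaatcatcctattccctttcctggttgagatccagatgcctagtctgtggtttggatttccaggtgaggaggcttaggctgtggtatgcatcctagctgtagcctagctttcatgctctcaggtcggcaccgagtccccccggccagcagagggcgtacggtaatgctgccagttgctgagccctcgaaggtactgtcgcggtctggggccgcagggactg
The log2 ratio was -1.55 at the inner start and -0.21 at the outer. Dhx32 had a like arrangement, with 13 and 50 in a region over a RefSeq start at -5982 from the authors' start, while at the latter it had 26 and 28. Those ratios were -1.87 and -0.10. The Dhx32 region with 13 and 50 was called in wildtype only and was also assigned to Fank1. In both genes the start that was higher in wildtype was the one with the lower ratio. Wildtype height is part of the ratio, so height and ratio are not independent here.

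Among the remaining members, Ddx20, of the SMN complex that assembles spliceosomal particles, had 39 and 91 at its start. Ddx1, of the tRNA ligase complex, had 12 and 29 at its start and 33 and 107 in a region 34092 bp past it, beyond the gene end. Ddx28, a mitochondrial helicase, had 25 and 32 in a region shared with Dus2l. The sensors of foreign RNA had no region at their start: Ddx58 had 8 and 17 at 21191 bp inside the gene, and Dhx58 had 29 and 63 at 1616 bp inside. The germ cell helicases also had none there, with Ddx25 at 17 and 42 and Ddx43 at 7 and 20, both far from the start. These are lists of 2 bound genes each, and 48.3% of all genes in the table had a region at their start.

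Related helicases under other names were bound in 20 of 22, beside 66.1% of protein-coding genes. Of the 20, 16 had a region at their own start (80%), beside 48.3% of all genes in the table. The median log2 ratio of the 20 was -1.21, with 14 of 20 at least 2-fold lower (70%), beside 57.7% of all genes. Dicer1, the microRNA processing enzyme, had 59 and 165 at its start, and Ighmbp2 34 and 102. Tdrd9 had 77 and 177 and Znfx1 68 and 161, both in regions upstream that were assigned to other genes too. Eif4a1, a translation initiation helicase, had 88 in both libraries in a region shared with 5 other genes. Partners of the helicases were bound in 27 of 29, with 21 of the 27 at their start (77.8%), beside the same 66.1% and 48.3%. Of the 27, 14 were at least 2-fold lower (51.9%), beside the same 57.7%. Eif4g2 had 117 and 242 at its start and was the highest partner. Eif4b had 72 and 148 upstream, Gemin4 32 and 89, Edc3 36 and 75, and Gle1 38 and 64. All genes had a median of -1.08, and the differences were not tested.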

How the data were processed

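SRF ChIP libraries of mutant and wildtype cornea, 1 each, were grouped by sample title. BWA and mm10 are named in the submitters' processing notes. How intervals were called and at what threshold, and whether the libraries were scaled to each other, was not given in the sources used here; scaling bears on every ratio. The deposited signal values are peak and average values of intervals called per library and of merged regions, per the file headers. Read totals were not used here, so depth is unknown. Gene assignments and distances to starts are the authors'; distances refer to region centres.

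Heights are peak values. Ratios are log2 of mutant over wildtype after adding 1, which understates low regions. Called means an interval by the authors, a fold call a size of at least 2. The members, role lists and rules were chosen with earlier results of these data known. Named were the 12 highest members, the 6 highest and 6 lowest ratios among 32 members with a height of at least 28, up to 3 per role list, members without a mutant interval, and up to 5 per comparison list; further members were added so that each is accounted for. Windows and gene models came from RefSeq (GRCm38.p6); all 47 genes matched by identifier. For shares over all genes the first listed window was used. Ratios and pattern searches were tested on simulated data. Alternatives were the average value, a pseudocount of 5, common scaling, height minimums, regions called in both, single-gene regions, gene-start regions, the mean over regions and a 5 kb promoter. Python 3.11.15, numpy 2.4.6, pandas 2.3.3, scipy 1.17.1 and matplotlib 3.10.9 were used.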

Additional observations from a re-analysis of the deposited data

How the results depend on the processing

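No paired analysis was possible because there was only 1 library in each arm. Splits by promoter were chosen after seeing the data. Without regions of more than 1 gene, 14 of 47 genes were called in mutant (29.8%, beside 33.7% of all genes) and 20 in wildtype (42.6%, beside 51.5%), so the mutant share went from above to below that of all genes. There the regional median log2 ratio was -1.23 (all regions -1.10), 25 of 31 regions were at least 2-fold lower (80.6%, beside 58.9%) and 41.9% were at promoters (beside 20.8%). These 31 regions had a median wildtype height of 38, beside 28 for all regions. The average value gave medians of -0.77 over regions (all -0.83) and -0.76 over genes (all -0.79), and 25 of 92 regions at least 2-fold lower (27.2%, beside 35.5%). A pseudocount of 5 gave -0.89 over both (all -0.93 and -0.94). Common scaling shifts every ratio about alike, so signs follow the factor; it gave -0.072 and -0.064 (all -0.090 and -0.050), with 3 regions at least 2-fold lower (3.26%, beside 9.30%) and 1 higher (1.09%, beside 4.58%). The Ddx42 ratio became 0.014, and 38 of 92 regions (41.3%) were then higher in mutant, beside 43.5%. With a height of at least 28, 36 of 54 regions were at least 2-fold lower (66.7%, beside 68.6%) at a median of -1.21, as for all regions of that height. At promoters 26 of 50 were (52%, beside 39.6%) and elsewhere 29 of 42 (69.0%, beside 62.7%). The 50 had a median wildtype height of 30.5, beside 23 for all promoter regions. The cause of these shifts was not tested, and the subsets also hold fewer regions. With read depth unknown, no limit could be set for the low regions.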

Other observations

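Over 15 helicase windows with the ETS pattern the median height was 18 in mutant and 29 in wildtype, and over 21 without it 23 and 32. Ddx5 was counted among the 21 by the window shown above, though another of its windows held a match. Among the highest start regions, Ddx17, Dhx8 and Ddx47 have a match and Ddx42, Ddx18 and Ddx46 have none. The 5 windows with the CRE pattern had wildtype heights of 15 to 36, and their median log2 ratio was -0.35, against -1.05 for the 31 without it. Of these 5, the regions of Ddx28, Ddx49 and Ddx51 also hold another gene start. The GC box gave -1.09 over 24 windows with it and -0.46 over 12 without. These values were set side by side after they were seen and were not tested.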
